A study of Mus musculus with 9 samples.

Results

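The interferon regulatory factor genes Irf1, Irf2, Irf3, Irf4, Irf5, Irf7, Irf8 and Irf9 were read across the first hour of lipopolysaccharide (LPS) in mouse macrophages. They were chosen by gene symbol, with earlier results of these data known, and are 8 of the 55450 gene identifiers in the count table. All 8 passed the filter on low counts. The cells were IMM, immortalized macrophages of the mouse, genotype WT, and their total RNA was sequenced. The control group, at 0 min, had no LPS, and the other groups had 100 ng/mL LPS for 30 or 60 min. Each time had 3 libraries, 9 altogether. LPS, shed from the outer membrane of Gram-negative bacteria, is recognised by the receptor Tlr4. All libraries come from a single line, no library without LPS was taken at 30 or 60 min, and the effects of LPS, handling and time cannot be told apart.

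Interferon regulatory factors (IRFs) share a DNA-binding domain that recognises GAAA-rich elements, among them the interferon-stimulated response element (ISRE). Tlr4 signals through the adaptors Myd88 and Ticam1 (TRIF). The second route activates the kinase Tbk1, which phosphorylates IRF3 protein and so switches on interferon genes, while IRF5 acts downstream of Myd88 on cytokine genes. IRF protein activity is set largely by phosphorylation and movement into the nucleus, which RNA counts do not measure.

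In the first hour, Irf1 was the member that changed most. Its transcript level rose 2.74-fold by 30 min and 6.58-fold by 60 min. By 60 min Irf5 had also risen, by a far smaller amount (1.17-fold), and Irf2 (1.24-fold) and Irf8 (1.23-fold) had fallen. No change was called for Irf3, Irf4, Irf7 or Irf9 in any comparison. At 30 min, 1 of the 8 members was called higher and 0 lower, at a Benjamini-Hochberg adjusted p under 0.05 in edgeR's quasi-likelihood test over 14246 genes. The background was 4.84% of all genes called higher and 3.35% called lower. One member, Irf2, was lower at an unadjusted p under 0.05 by edgeR, and DESeq2 and limma-voom each called 0 lower. At 60 min against 0 min, 2 members were called higher and 2 lower, against 13.3% and 11.7% of all genes. From 30 to 60 min, 2 were called higher and 2 lower, against 8.87% and 7.65%. The members' median log2 change was -0.0035 for 30 against 0 min, -0.14 for 60 against 0 min and -0.11 for 60 against 30 min, and the corresponding medians over all genes were 0.0062, 0.00096 and 0.0012. By library values alone, 1 member lay wholly above and 1 wholly below its 0 min libraries at 30 min (14.1% and 11.7% of all genes did so), 2 and 3 at 60 min (19.6% and 18.7%), and 2 and 4 from 30 to 60 min (17.1% and 16.7%). The comparisons of 30 and 60 min with 0 min share the 0 min libraries.

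Libraries held 26867428 to 30402308 counts. Levels are CPM, counts scaled to a common library size, with library totals scaled by edgeR's TMM factors (0.9704 to 1.034). Over all genes, 59.1% of the calls at 30 min and 53.1% of those at 60 min were higher. With library totals as the only scaling these shares were 45.9% and 30.1%, and from 30 to 60 min the share went from 53.7% to 37.5%. The 4 members called at 60 min kept their direction and their call under that scaling. The 8 macrophage markers, which included Csf1r at up to 627.5 CPM in the mean of a time, summed to 1945 to 2076 CPM by plain library totals over the 9 libraries. At 60 min 2 of them were called higher and 1 lower, against 13.3% and 11.7% of all genes. Markers of other leukocytes were low: the highest mean at any time was 8.86 CPM for dendritic cells (Batf3), 6.08 CPM for neutrophils (Csf3r), 3.62 CPM for T cells (Lck) and 0.270 CPM for B cells (Cd79a), and that of the fibroblast marker Col1a1 was 0.117 CPM. At 0 counts in all libraries were 2 of 5 B cell, 1 of 4 T cell, 2 of 4 neutrophil and 1 of 3 fibroblast markers. In such bulk samples, a change in the number of cells of a type and a change in RNA per cell cannot be told apart.

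The 250 bases before the first annotated start of the 4 members that changed are shown so that the elements before each start can be read beside its change. Sequences and starts are from RefSeq on GRCm38.p6 (mm10). Each is written 5′ to 3′ on the gene's strand, ends at the base before the start, and has every motif match in capitals.

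Irf1, chr11:53769764-53770013, + strand: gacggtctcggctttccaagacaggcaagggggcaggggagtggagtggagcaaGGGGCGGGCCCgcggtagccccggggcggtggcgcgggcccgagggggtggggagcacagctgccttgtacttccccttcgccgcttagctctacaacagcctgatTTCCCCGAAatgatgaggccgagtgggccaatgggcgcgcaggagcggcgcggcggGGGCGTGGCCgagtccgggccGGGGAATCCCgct
Irf2, chr8:46739495-46739744, + strand: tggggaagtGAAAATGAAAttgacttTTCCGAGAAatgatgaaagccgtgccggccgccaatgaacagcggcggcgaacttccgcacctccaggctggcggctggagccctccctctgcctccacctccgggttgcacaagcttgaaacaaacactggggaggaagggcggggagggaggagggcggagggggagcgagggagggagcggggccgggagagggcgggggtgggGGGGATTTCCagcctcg
Irf5, chr6:29526375-29526624, + strand: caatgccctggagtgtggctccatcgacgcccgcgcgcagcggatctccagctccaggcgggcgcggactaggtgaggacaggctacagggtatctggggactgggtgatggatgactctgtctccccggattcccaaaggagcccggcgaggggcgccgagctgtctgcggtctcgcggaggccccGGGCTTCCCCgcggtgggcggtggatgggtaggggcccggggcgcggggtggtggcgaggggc
Irf8, chr8:120736108-120736357, + strand: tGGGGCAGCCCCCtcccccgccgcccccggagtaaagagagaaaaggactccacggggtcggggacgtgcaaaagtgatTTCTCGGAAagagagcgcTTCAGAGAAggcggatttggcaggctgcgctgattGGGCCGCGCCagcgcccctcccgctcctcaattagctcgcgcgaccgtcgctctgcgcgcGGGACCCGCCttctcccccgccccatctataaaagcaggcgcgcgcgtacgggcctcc

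The letters searched, on both strands and with overlaps kept, were GGG and CC with any 5 bases between (the kB form, bound by NF-kB), TTCNNNGAA (the GAS form, bound by STAT dimers), GAAA and GAAA with any 2 bases between (the ISRE form) and TGANTCA (the AP-1 form). Of 32851 promoter windows of the same length, 45.8% held the kB form, 7.02% the GAS form, 2.98% the ISRE form and 6.75% the AP-1 form. The Irf1 window held the GAS form TTCCCCGAA at -90 to -82, counted back from the start, and the kB form GGGGAATCCC at -13 to -4, which fits the loose pattern on both strands. The Irf2 window held the GAS form TTCCGAGAA at -224 to -216, the ISRE form GAAAATGAAA at -241 to -232 and the kB form GGGGATTTCC at -17 to -8. That of Irf8 held the GAS forms TTCTCGGAA at -171 to -163 and TTCAGAGAA at -153 to -145, besides several kB matches. A second annotated start of Irf1 (window chr11:53770223-53770472) and one of Irf8 (window chr8:120738389-120738638) had 0 matches and are not shown. In Irf5 the only match was the kB form GGGCTTCCCC at -63 to -54. Only the kB form was found before the starts of Irf3, Irf4, Irf7 and Irf9, and the AP-1 form was in no member's window. In Irf9 the match lay before the second annotated start, and the window of the first had 0 matches. The GAS form was thus present in the windows of Irf1, which rose, and of Irf2 and Irf8, which fell. A match is a description of the letters and not evidence of binding, which was not measured.

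Irf1 and Irf2 are the first-described pair of the family. IRF1 activates, and IRF2 mostly competes for the same elements and represses. Irf1 (ENSMUSG00000018899.16, chr11:53770014-53778374, + strand) stood at 12.9, 11.5 and 13.0 CPM in the libraries at 0 min. At 30 min it was at 44.7, 28.6 and 29.1 CPM, and at 60 min at 88.1, 77.8 and 80.7 CPM. The times did not overlap, and within 30 min replicate 1 lay well above the other libraries. The log2 change was 1.45 at 30 min (SE 0.14, 95% interval 1.14 to 1.76; edgeR adjusted p 9.05e-06) and 2.72 at 60 min (SE 0.14, 95% interval 2.42 to 3.02; edgeR adjusted p 2.20e-09). From 30 to 60 min it rose by a further 1.27 (SE 0.12, 95% interval 1.00 to 1.53; edgeR adjusted p 5.87e-06). Without replicate 1 of 30 min the change at 30 min was 1.21 and that from 30 to 60 min 1.51. Counted from the highest signed log2 change, Irf1 ranked 176 of 14246 genes at 30 min and 114 at 60 min.

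Irf2 (ENSMUSG00000031627.9, chr8:46739732-46847458, + strand) went the other way. It measured 49.4, 50.6 and 46.7 CPM at 0 min, 47.0, 46.8 and 41.0 CPM at 30 min, and 38.4, 40.5 and 39.1 CPM at 60 min. The 60 min libraries all lay below every earlier one, and those of 0 and 30 min overlapped. The log2 change at 60 min was -0.31 (SE 0.05, 95% interval -0.43 to -0.20; edgeR adjusted p 0.000646). At 30 min it was -0.12 (95% interval -0.24 to -0.01; edgeR adjusted p 0.212), which did not pass. The step from 30 to 60 min, -0.19 (edgeR adjusted p 0.0269), no longer passed without replicate 1 or 2 of 30 min, or without replicate 1 or 3 of 60 min (adjusted p 0.0651 to 0.125). Per kilobase of exon, the ratio of Irf1 to Irf2 transcript level was 0.476 ± 0.0485 at 0 min, 1.41 ± 0.324 at 30 min and 3.89 ± 0.349 at 60 min (SD, n = 3). Irf1 was therefore the lower of the pair in every 0 min library and the higher in every library with LPS.

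**Figure D1:**
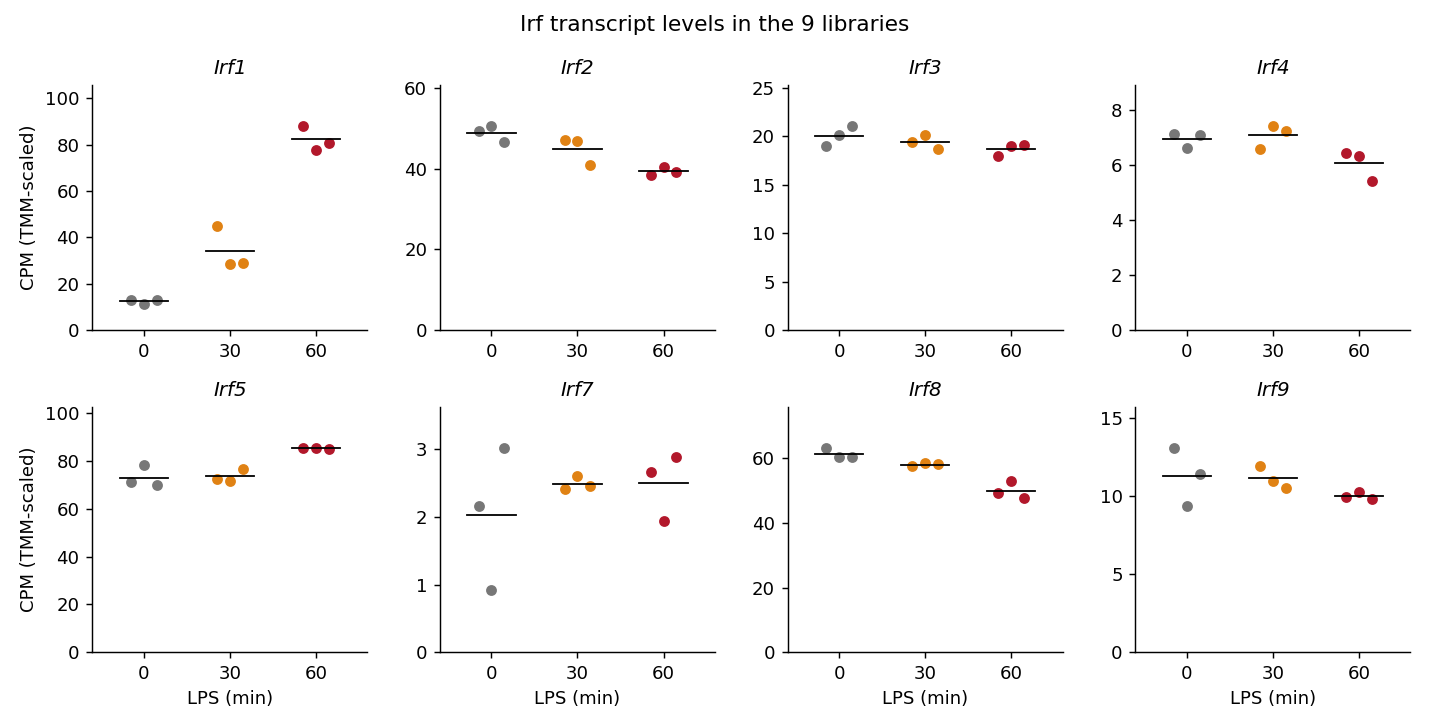
TMM-scaled CPM (y, linear from 0, a separate scale for each gene) against minutes of LPS (x) for the 8 Irf genes; each point is 1 library and the bar the mean of 3. Irf1 rises from 11.5 to 13.0 CPM at 0 min to 77.8 to 88.1 CPM at 60 min, Irf5 steps up at 60 min, and Irf2 and Irf8 step down.

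IRF3, IRF5 and IRF7 are the members that pattern-recognition receptors activate by phosphorylation. Irf5 (ENSMUSG00000029771.12, chr6:29526625-29541871, + strand) was the most abundant member per kilobase at 0 min. Its libraries read 71.1, 78.1 and 70.0 CPM at 0 min, 72.4, 71.4 and 76.7 CPM at 30 min, and 85.5, 85.4 and 84.8 CPM at 60 min. The 60 min libraries lay within 1 CPM of each other and above all earlier ones, and those of 0 and 30 min overlapped. The log2 change was 0.22 at 60 min (SE 0.04, 95% interval 0.13 to 0.32; edgeR adjusted p 0.0019), 0.01 at 30 min (95% interval -0.09 to 0.11) and 0.21 from 30 to 60 min (edgeR adjusted p 0.00388). The rise was therefore called between 30 and 60 min and not before. With library totals as the only scaling the 60 min change was 0.15, still called (edgeR adjusted p 0.0151).

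Irf3 (ENSMUSG00000003184.15, chr7:44997648-45002848, + strand) was present at 19.0, 20.1 and 21.1 CPM at 0 min, 19.4, 20.2 and 18.7 CPM at 30 min, and 18.0, 19.0 and 19.1 CPM at 60 min. The groups overlapped, and the log2 change at 60 min was -0.10 (95% interval -0.23 to 0.03; edgeR adjusted p 0.249). Irf7 (ENSMUSG00000025498.15, chr7:141262706-141266481, - strand), the member that amplifies the interferon response once interferon is made, was the least abundant. Only 59, 26 and 93 counts were assigned to it at 0 min, 69, 75 and 68 at 30 min, and 76, 57 and 85 at 60 min. Its log2 change at 60 min was 0.29 with a 95% interval of -0.35 to 0.92 (edgeR adjusted p 0.534). The change was thus not told apart from no change with these libraries, whose counts at 0 min spread widely. Without replicate 2 of 0 min, the lowest library, the value for Irf7 turned to -0.06.

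IRF4 and IRF8 are the members of blood and immune cells that bind DNA with partners such as PU.1 (Spi1), and IRF8 is required in monocyte and macrophage development. Irf8 (ENSMUSG00000041515.10, chr8:120736358-120756694, + strand) read 63.2, 60.4 and 60.4 CPM at 0 min, 57.5, 58.4 and 58.1 CPM at 30 min, and 49.4, 52.8 and 47.7 CPM at 60 min. Every 30 min library lay below every 0 min library, and every 60 min library below both. The log2 change was -0.08 at 30 min, which did not pass (95% interval -0.17 to 0.01; edgeR adjusted p 0.287), -0.29 at 60 min (SE 0.04, 95% interval -0.39 to -0.20; edgeR adjusted p 0.000118) and -0.21 from 30 to 60 min (edgeR adjusted p 0.00267). Markers of dendritic cells, which also express Irf8, were low, and 4 of the 8 passed the filter on low counts. Over the 3 libraries of 0, 30 and 60 min, Cd209a had 0, 0 and 2 counts, Siglech 1, 4 and 0, and Flt3 5, 3 and 10. The highest at 0 min were Batf3 (8.86), Zbtb46 (8.18) and Itgax (5.39 CPM by plain totals). By plain totals the 8 markers summed to 21.4 to 24.2 CPM at 0 min. The sums were 22.3 to 24.9 at 30 min and 19.3 to 21.7 at 60 min. Of 4 tested, 2 were called lower at 60 min by edgeR, against 11.7% of all genes. The 2 were Zbtb46 (-0.31, edgeR adjusted p 0.017) and Xcr1, which had only 34, 26 and 9 counts over the 3 libraries of each time. Limma-voom called 2 of these markers lower and DESeq2 0. Their part in the fall of Irf8 was not tested. A second gene model, Gm20388, spans 4434882 bases on the same strand and covers Irf8 but shares 0 exonic bases with it. Its level was 23.1 ± 4.10, 29.1 ± 4.34 and 27.8 ± 2.35 CPM at 0, 30 and 60 min (SD, n = 3), with no change called. Counting both models as 1 gene, a check added after seeing the data, gave 0.04 at 30 min and -0.12 at 60 min (edgeR adjusted p 0.0653). The 60 min call of the sum did not pass, while its step from 30 to 60 min did (-0.16, edgeR adjusted p 0.0206). The sum takes in the counts of Gm20388, so it does not give the change of Irf8 alone and cannot decide whether the call of Irf8 holds.

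Irf4 (ENSMUSG00000021356.10, chr13:30749226-30766976, + strand) was low, at 7.11, 6.61 and 7.11 CPM at 0 min, 6.57, 7.42 and 7.22 CPM at 30 min, and 6.45, 6.34 and 5.43 CPM at 60 min. All 60 min libraries lay below all earlier ones, yet the change of -0.19 at 60 min (95% interval -0.40 to 0.02; edgeR adjusted p 0.172) and that of -0.22 from 30 to 60 min (edgeR adjusted p 0.157) did not pass.

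Irf9 (ENSMUSG00000002325.15, chr14:55603571-55610030, + strand) encodes the DNA-binding subunit of ISGF3, the complex that forms after interferon binds its receptor. It measured 13.1, 9.38 and 11.4 CPM at 0 min, 11.9, 10.996 and 10.5 CPM at 30 min, and 9.96, 10.2 and 9.84 CPM at 60 min. The 0 min libraries spread the most, and their range held every 30 and 60 min value. The log2 change at 60 min was -0.17 (95% interval -0.40 to 0.05; edgeR adjusted p 0.261). Without replicate 2 of 0 min, the lowest library, it was -0.29 and passed (edgeR adjusted p 0.0325). Irf9 shares 123 exonic bases on the same strand with Rnf31, a ubiquitin ligase gene that fell at 60 min (-0.28, edgeR adjusted p 0.0202). Summed with it, which was also added after seeing the data, the pair was called lower (-0.23, edgeR adjusted p 0.0178). Rnf31 had more counts than Irf9 in every library, so the sum does not give the change of Irf9 alone.

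Other overlaps were on the opposite strand, and the strand setting of the counting is not given in the sources used here. Irf1 shares 135 exonic bases with Gm17334, which had 0 to 3 counts per library. Irf3 shares 88 with Bcl2l12, which fell at 60 min (-0.47, edgeR adjusted p 0.00602), Irf5 shares 411 with Tnpo3 and Irf7 shares 45 with Phrf1, and neither of these was called. Their part in the members' values was not tested.

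**Figure D2:**
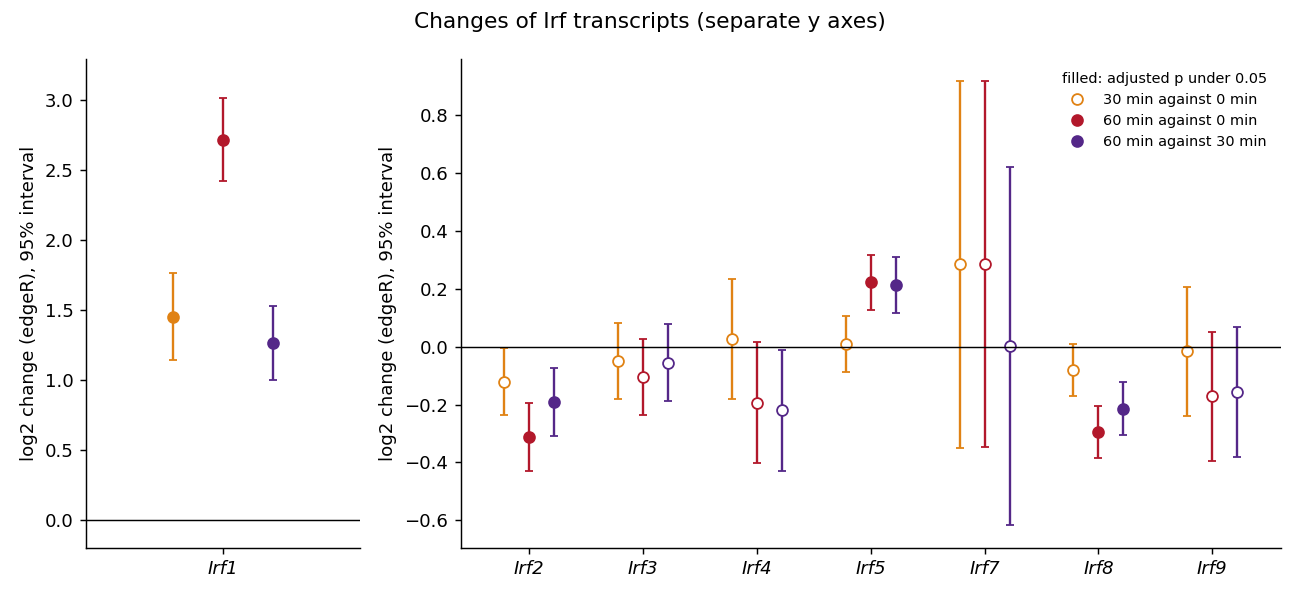
log2 change from edgeR (y) for each Irf gene (x) in the 3 comparisons, with 95% intervals; filled points passed an adjusted p of 0.05 and the panels have separate y axes. Irf1 stands at 1.45 and 2.72 against 0 min, and Irf2, Irf5 and Irf8 have filled points between -0.31 and 0.22.

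Because genes differ in length, levels were compared between members per kilobase of merged exon (CPM per kb). At 0 min the order was Irf5 (25.1), Irf8 (8.69), Irf2 (6.61), Irf3 (5.83), Irf1 (3.14), Irf9 (2.10), Irf4 (1.42) and Irf7 (0.538 CPM per kb), with no overlap between neighbours. At 30 min Irf1 (8.58 CPM per kb) came second, but its library range overlapped that of Irf8 (8.22), and Irf2 (6.07) overlapped Irf3 (5.64). By 60 min Irf1 (20.7 CPM per kb) was second to Irf5 (29.3) with no overlap, Irf8 (7.08) came next, and Irf3 (5.43) and Irf2 (5.32) overlapped. Irf9, Irf4 and Irf7 kept the last places at all 3 times. Against tested protein-coding genes, Irf1 moved from percentile 30.6 of level per kilobase at 0 min to 58.0 at 30 min and 80.3 at 60 min. With the longest annotated transcript as the length, Irf1 was in place 3 at 30 min and place 1 at 60 min, where its range overlapped that of Irf5.

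Summed over the 8 genes, the level was 53.5 ± 0.820 CPM per kb at 0 min, 58.0 ± 2.18 at 30 min and 71.6 ± 1.10 at 60 min (SD, n = 3). Without Irf1 the sum was 50.3 ± 1.02, 49.4 ± 0.252 and 50.9 ± 0.578 CPM per kb. Without Irf1, the libraries of 0 min (49.4 to 51.4) overlapped those of both other times, while those of 30 min (49.2 to 49.7) lay below those of 60 min (50.5 to 51.6). Irf1 made up 5.87% ± 0.481 of the family's transcripts at 0 min, 14.7% ± 3.35 at 30 min and 28.9% ± 1.46 at 60 min (SD, n = 3). Irf5 went from 47.0% ± 2.13 to 41.0% ± 0.507 over the hour although its own level rose, and Irf8 from 16.3% ± 0.519 to 9.90% ± 0.545. The ratio of Irf5 to Irf8 level was 2.90 ± 0.216 at 0 min, 3.08 ± 0.120 at 30 min and 4.15 ± 0.202 at 60 min (SD, n = 3). With the longest transcript as length the ratios were 1.85, 1.96 and 2.64. These shares and ratios are descriptions without a test.

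**Figure D3:**
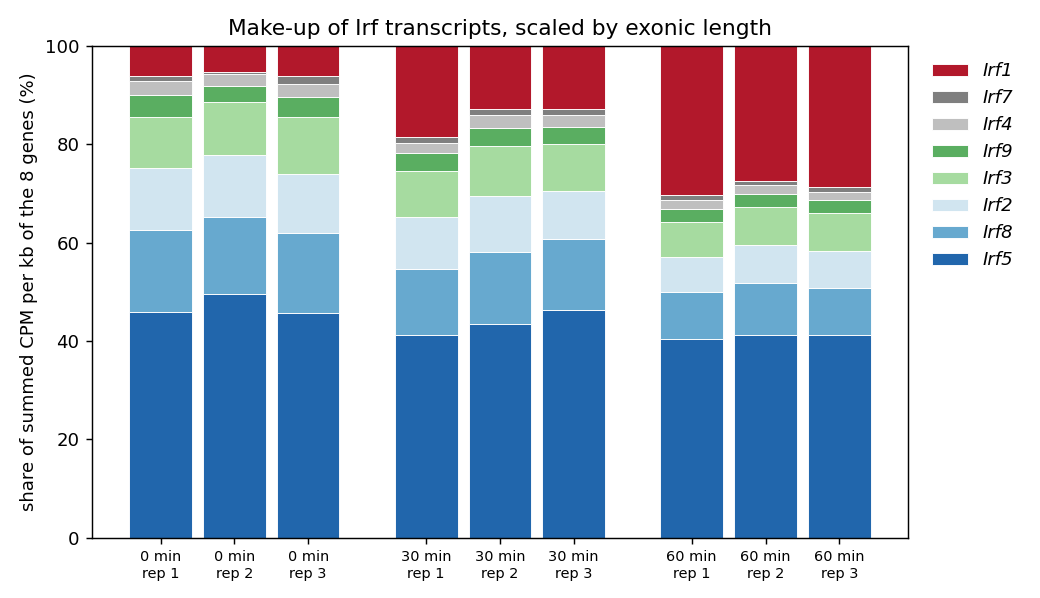
Share of each Irf gene in the summed CPM per kb of the 8 genes (y, percent) in each of the 9 libraries (x, by time and replicate). The Irf1 segment widens from 5.32% to 6.19% at 0 min to 27.5% to 30.4% at 60 min.

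The genes nearest to Irf1 in profile were sought among 9383 protein-coding genes with a mean of at least 5 CPM, by the root mean square difference over the 9 libraries of log2 CPM relative to each gene's own 0 min mean. They were Il1rn, the interleukin-1 receptor antagonist (difference 0.135), Zc3h12a, the RNase Regnase-1 (0.140), and Tlr2, a receptor for bacterial lipoproteins (0.149). Il1rn measured 5.20 ± 0.437, 14.5 ± 3.40 and 31.3 ± 3.03 CPM at 0, 30 and 60 min, Zc3h12a 10.0 ± 0.395, 25.0 ± 2.91 and 60.7 ± 3.78 CPM, and Tlr2 65.7 ± 1.67, 197 ± 28.9 and 392 ± 20.04 CPM (SD, n = 3). At 30 min replicate 1 was the highest library for all 4 genes, which the choice by likeness over these same 9 libraries favours. Among the list genes named for their 60 min change, it was also the highest of that time for Cd14, Tank, Ikbke, Cxcl10, Rsad2 and Ccl5. The same held for Ifnar1, Cd274, Psmb9, Tnf, Il6 and Il23a. For Ticam1, Irf2bp2, Stat2, Socs1, Trim21, Nos2 and Ciita it was not the highest. What sets it apart was not tested. No other member changed enough (1.5-fold) to be compared in this way.

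**Figure D4:**
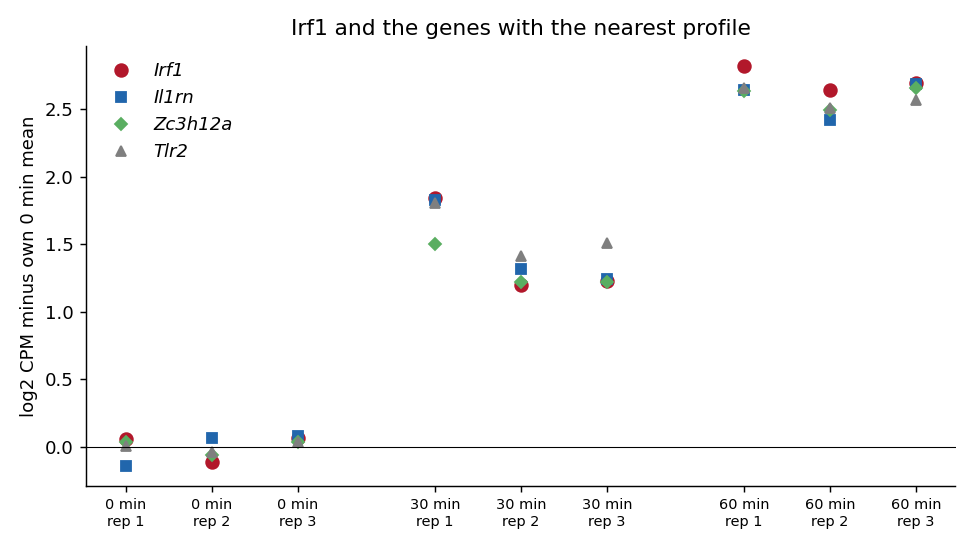
log2 CPM minus the gene's own 0 min mean (y) in each of the 9 libraries (x) for Irf1, Il1rn, Zc3h12a and Tlr2. All 4 genes climb at 30 and 60 min, and at 30 min replicate 1 is the highest for each. Il1rn, Zc3h12a and Tlr2 were chosen for their likeness to Irf1 over these 9 libraries.

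Irf2bp1, Irf2bp2 and Irf2bpl, which carry Irf in their symbol but are not members of this set, encode binding proteins of IRF2. Of these, Irf2bp2 rose from 195 ± 5.84 to 258 ± 4.92 and 289 ± 5.62 CPM (SD, n = 3), a log2 change of 0.40 at 30 min and 0.57 at 60 min (edgeR adjusted p 1.68e-06 and 1.32e-08), and the other two were not called.

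Upstream of the IRFs, 22 genes of the receptor and kinase route were listed and all were tested. At 30 min 1 was called higher and 2 lower, at 60 min 7 higher and 5 lower, and from 30 to 60 min 8 higher and 3 lower. Their median log2 change was -0.0080, 0.023 and 0.034, against 0.0062, 0.00096 and 0.0012 over all genes. As background for this list and those below, 4.84% of all genes were called higher and 3.35% lower at 30 min. At 60 min these shares were 13.3% and 11.7%, and from 30 to 60 min 8.87% and 7.65%. Cd14, the LPS co-receptor, rose from 22.3 ± 1.51 to 88.9 ± 13.0 and 136 ± 9.45 CPM (SD, n = 3), a log2 change of 1.99 and 2.61. Tank, a scaffold of Tbk1, was at 55.3 ± 1.62 and 60.2 ± 4.72 CPM at 0 and 30 min and 126 ± 3.26 CPM at 60 min, a log2 change of 1.19 (edgeR adjusted p 3.21e-10). Ikbke, the kinase related to Tbk1, followed the same course (56.1 ± 8.03, 63.5 ± 4.18 and 120 ± 8.65 CPM, log2 1.10 at 60 min, edgeR adjusted p 1.90e-07). The rise of Ticam1 was 0.46 at 60 min (edgeR adjusted p 0.000175). Tlr4 itself was not called (log2 -0.09 at 60 min), and Tbk1 rose by 0.32. Among the genes lower at 60 min were the adaptor genes Ticam2 (-0.31) and Mavs (-0.29), and the lysosomal transporter gene Slc15a4 (-0.27), whose product supports endosomal signalling to IRF5.

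Of 15 partners and regulators of IRFs, 12 were tested. At 30 min 1 was called higher and 1 lower, at 60 min 3 higher and 3 lower, and from 30 to 60 min 3 higher and 2 lower, with medians of -0.0044, -0.078 and -0.096. Stat2, the ISGF3 subunit, fell from 14.6 ± 0.890 to 11.2 ± 0.293 and 7.01 ± 0.325 CPM (SD, n = 3), a log2 change of -0.38 at 30 min and -1.06 at 60 min (edgeR adjusted p 0.00414 and 9.68e-08). Socs1, an inhibitor of interferon signalling, rose at 60 min by 1.97 (edgeR adjusted p 0.000412), from 28 counts at 0 min to 112 counts over 3 libraries. Trim21, a ubiquitin ligase that acts on IRF proteins, fell by 0.54 at 60 min (edgeR adjusted p 0.00237), and Spi1 rose by 0.17.

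The interferon list held 25 genes, of which 19 were tested. At 30 min 3 were called higher and 0 lower, at 60 min 5 higher and 2 lower, and from 30 to 60 min 3 higher and 0 lower, with medians of 0.14, 0.16 and 0.059. For the counts of 0, edgeR gave 0 genes lower at an unadjusted p under 0.05 at 30 min and 2 from 30 to 60 min, and DESeq2 and limma-voom called 0 lower in both. Cxcl10, a chemokine gene that both NF-kB and IRFs can drive, rose from 2.13 ± 0.799 to 28.1 ± 4.96 and 108 ± 8.65 CPM (SD, n = 3), a log2 change of 3.70 and 5.65 (edgeR adjusted p 3.97e-09 and 9.66e-12). Rsad2, which encodes the antiviral protein viperin, rose by 1.15 at 30 min and stood at 1.25 at 60 min. Ccl5 was higher at 60 min by 1.46 (edgeR adjusted p 0.000905), from 47 to 131 counts over 3 libraries. The receptor gene Ifnar1 rose by 0.17 and 0.42, and the call at 30 min was lost without replicate 1 of 30 min (edgeR adjusted p 0.052). Ifnb1, the interferon-beta gene that IRF3 drives, had 0, 0 and 4 counts over the 3 libraries of 0, 30 and 60 min and was not tested. At 60 min 12 of the 19 were not called, among them the antiviral genes Ifit1, Oas1a and Oasl1. The 2 called lower were Ifit2 (-0.24, edgeR adjusted p 0.049) and Eif2ak2 (-0.22, edgeR adjusted p 0.0258), which encode antiviral proteins too, and DESeq2 and limma-voom each called 1 lower.

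Of 13 genes that IRF1 is known to regulate, 10 were tested. Gbp2, Gbp5 and Il12b, with few counts, were not. Over the 3 libraries of 0, 30 and 60 min, Gbp2 had 8, 14 and 40 counts. Gbp5 had 2, 4 and 14, and Il12b 0, 1 and 8. Of the 10 tested, 2 were called higher and 0 lower at 30 min, and 3 higher and 1 lower at 60 min. From 30 to 60 min 2 were called higher and 1 lower. The medians of the 10 were 0.10, 0.068 and 0.00033. For the count of 0 lower at 30 min, edgeR's unadjusted p also gave 0, as did DESeq2 and limma-voom. Nos2, the inducible nitric oxide synthase, had 12, 39 and 141 counts over the 3 libraries of each time, a log2 change of 1.69 at 30 min (edgeR adjusted p 0.035) and 3.50 at 60 min (edgeR adjusted p 6.93e-06). The 30 min call of Nos2 was lost with limma-voom and without any 1 of 5 of the 6 libraries compared (adjusted p 0.0505 to 0.131). Ciita, the switch of MHC class II genes, had 3, 13 and 48 counts, a ratio of 15.8 at 60 min with a 95% counting interval of 5.10 to 79.5. Cd274, encoding PD-L1, rose by 0.55 and 0.64 (edgeR adjusted p 0.00324 and 0.000285). The immunoproteasome gene Psmb9 fell by 0.47 at 60 min (edgeR adjusted p 0.0259), a call lost with DESeq2 (adjusted p 0.0896) and without replicate 3 of 0 min or replicate 2 or 3 of 60 min, while Psmb8 and Tap1 were not called.

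Of 5 cytokine genes that IRF5 is known to regulate, 3 were tested and all 3 were called higher at 30 and at 60 min, with 0 lower in any comparison by edgeR, its unadjusted p, DESeq2 or limma-voom. Their median log2 changes against 0 min were 2.85 at the earlier and 3.56 at the later time. From 30 to 60 min the median was 0.57, and 1 of them was called higher. Tnf rose from 47.5 ± 4.27 to 341 ± 91.4 and 560 ± 37.5 CPM (SD, n = 3), a log2 change of 2.85 and 3.56. Il6 had 3, 151 and 219 counts over the 3 libraries of each time, a ratio of 51.2 at 30 min (95% counting interval 17.2 to 251) and 72.2 at 60 min (24.4 to 353). Il23a rose by 1.87 and 2.44 (edgeR adjusted p 0.00108 and 1.82e-05). At 30 min, when these cytokine genes were called higher, the log2 change of Irf5 itself was 0.01. The ratio intervals cover counting error only.

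**Figure D5:**
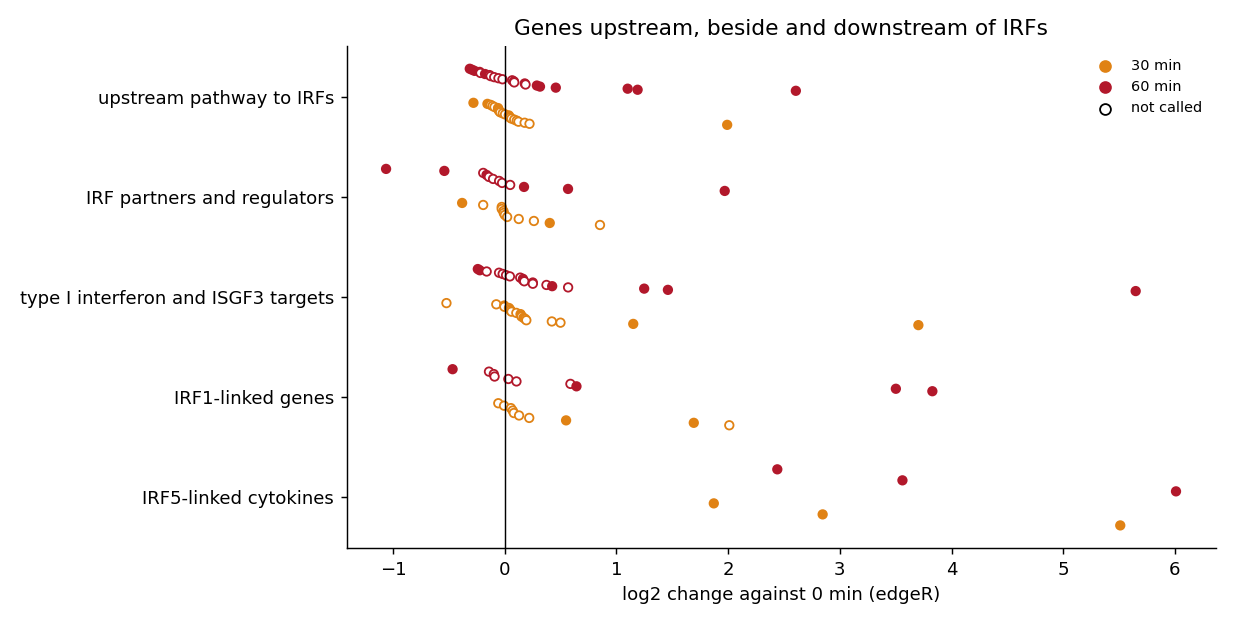
log2 change against 0 min from edgeR (x) for the tested genes of the 5 lists (y), at 30 min (orange) and 60 min (red); open points did not pass an adjusted p of 0.05. At 60 min Il6 (6.01) and Cxcl10 (5.65) lie farthest to the right and Stat2 (-1.06) farthest to the left.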

How the data were processed

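The deposited table holds expected counts per gene, not normalized, which the authors estimated with RSEM; the submitters' processing notes list RSEM 1.3.1, STAR 2.7.0f, cutadapt 1.18 and DESeq2, with the build mm10. Annotation and strand setting: not given in the sources used here. Per the labels, libraries were stranded total RNA with ribosomal RNA removed, which hold unspliced RNA too. The authors' deposited comparison tables give, per the file headers, a mean normalized count (signal), a log2 fold change with its SE, a test score, and a p-value and adjusted p-value. Their log2 changes for Irf1 were 1.45 at 30 min and 2.72 at 60 min in the authors' deposited tables.

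Here counts were rounded (5.04% to 5.32% of each library's values held decimals), filtered with filterByExpr's defaults and fitted in edgeR 4.0.16 (R 4.3.3) over all 9 libraries with time as the only term. The common dispersion was 0.0027. All 55450 identifiers were found in GENCODE M21, the source of gene positions and lengths. Named were all members, their overlapping genes, up to 4 called genes per list with the largest 60 min change, and the 3 nearest profiles. The list genes Tlr4, Tbk1, Ticam2, Mavs, Slc15a4, Spi1, Ifnb1, Ifit1, Ifit2, Eif2ak2, Oas1a, Oasl1, Psmb8 and Tap1 were named after their values were seen. So were Gbp2, Gbp5 and Il12b. Some other genes are not reported here. The members and lists were chosen with earlier results of these data known. The fit was tested on simulated data. Replicates rest on the labels, which call them biological. The chi-square per gene of a pair had a mean of 5.03 to 18.7, where sampling alone gives a mean of about 1. Its median was 0.867 to 1.39, where sampling alone gives a median well below 1. The typical gene thus also varied beyond sampling, and genes with large values raised the mean further. Alternatives were DESeq2 1.42.0, limma-voom (limma 3.58.1), library totals as the only scaling, other count filters, the replicate block, the 6 libraries compared alone, each library left out, and the longest transcript as length.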

Additional observations from a re-analysis of the deposited data

Results flagged for a closer look

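The test of 60 against 30 min asks whether the change at 60 min differs from that at 30 min, and the genes below passed it (edgeR adjusted p under 0.05). Among members the log2 difference was 1.27 for Irf1, 0.21 for Irf5, -0.19 for Irf2 and -0.21 for Irf8. Upstream, where 8 genes were called higher and 3 lower, it was 0.61 for Cd14, 1.07 for Tank, 0.92 for Ikbke and 0.24 for Ticam1. Ticam2 (-0.26) and Mavs (-0.23) were among the 3 lower. Among partners and regulators, with 3 higher and 2 lower, the difference was 1.12 for Socs1, 0.16 for Irf2bp2 and -0.68 for Stat2. In the interferon list it was 1.95 for Cxcl10, 1.04 for Ccl5 and 0.26 for Ifnar1. Among the genes linked to IRF1 it was 1.82 for Ciita, 1.81 for Nos2 and -0.46 for Psmb9, and among the cytokines 0.71 for Tnf.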

How the results depend on the processing

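Over the 24 member results and 390 alternatives, 383 kept their side of the threshold, 5 lost a call, 2 gained one, and no called value changed sign. The calls lost were that of Irf2 from 30 to 60 min, so that 1 or 2 members were called lower there when a library was left out, and that of Irf8 summed with Gm20388. The calls gained, both at 60 min, were that of Irf9 without replicate 2 of 0 min and that of Irf9 summed with Rnf31. The sums with Gm20388 and Rnf31 hold the counts of those genes too, so their calls are not those of the member alone. In 20 cases an uncalled value changed sign, 9 of them of Irf7 (-0.06 at 60 min without replicate 2 of 0 min). With library totals as the only scaling, genes called lower numbered 3049 at 60 min (1671 with TMM) and 1672 from 30 to 60 min (1090 with TMM). When a library was left out, genes called lower at 30 min numbered 290 to 523 (477 with all). With the longest transcript as length the share of Irf1 was 7.01% at 0 min and 33.5% at 60 min, and its place 3 at 30 min and 1 at 60 min. Replicate numbers did not pair the libraries: the deviations of same-numbered libraries correlated at -0.187 to 0.141 over 9959 genes. With the replicate block the members called were 1 higher and 0 lower at 30 min, 2 and 2 at 60 min, and 2 and 2 from 30 to 60 min; over all genes 588 and 379, 1720 and 1513, and 1156 and 952. It ended the 60 against 30 min call of Psmb9 (adjusted p 0.0546). The calls from 30 to 60 min of Psmb9, Ticam1, Ciita, Ccl5 and Socs1 were also lost when single libraries were left out. The cause of these differences was not tested. At 26 to 93 counts per library, widely spread at 0 min, Irf7 allowed no firm statement.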
